A study of Mus musculus with 35 samples.

Results

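ERV1 elements are long terminal repeat (LTR) retrotransposons left in the mouse genome by gammaretrovirus-like infections. Their members were taken here as every repeat subfamily that the annotation placed in the ERV1 family of the LTR class. The element tables listed 149 such subfamilies among 1146 transposable element subfamilies, beside 24411 genes. A minimum of 10 counts in total was met by 125 of them in the spermatocyte table, 126 in the round spermatid table and 132 in the chromatoid body table, and 122 met it in all 3 tables. The remainder had 1 to 9 counts (19, 17 and 14 subfamilies) or no count at all (5, 6 and 3 subfamilies). All 149 names were also found among the 1489 repeat names counted in the small RNA libraries, where 70 had at least 1 count in every library and 25 had none. By name, 30 of the 149 are internal (-int) regions, which hold the viral coding part, and 119 are LTRs or fragments of unstated kind.

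The study sequenced RNA of pachytene spermatocytes (Spc) and round spermatids (RS) from adult control (CTRL) and Smg6-cKO mice, with 3 libraries per group. It also sequenced RNA of isolated chromatoid bodies (CBs), the perinuclear RNA granules of round spermatids, in 4 CTRL and 3 cKO libraries, and small RNA in 5 CTRL and 5 cKO Spc libraries and 3 CTRL and 3 cKO RS libraries. In Smg6-cKO males, Cre driven by the Ngn3 promoter deletes the floxed exon 9 of Smg6, an endonuclease gene of nonsense-mediated decay, from early spermatogonia onward, whereas CTRL littermates had no Cre and carried the floxed allele on both chromosomes or beside a wild-type allele, and the sample labels say only control, with WT in the headers of the control small RNA columns. All mice were of a mixed C57Bl/6J and SV129 background, and each library of cells came from several testes, which were separated on a BSA gradient that enriches a cell type without purifying it. The CB libraries came from pooled mice, and 2 of the 4 CTRL columns carried a different header from the other 2.

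An ERV1 provirus has an LTR at each end and an internal region between them. The LTR holds the promoter and the polyadenylation signal, so that a full-length transcript starts in the first LTR and ends in the last one. Many copies are solitary LTRs, and many are partial. In male germ cells such elements are held down by DNA methylation and H3K9 methylation, and their transcripts are cut by PIWI proteins loaded with piRNAs, small RNAs that can themselves come from copies inserted in piRNA clusters. The younger mouse families include MURVY, found on the Y chromosome, the murine leukaemia virus relatives MuLV and RLTR4, the VL30 elements and MuRRS with its LTRIS type LTRs, whereas many MER and LTR numbered subfamilies are old fragments shared with other mammals.

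The order of these parts is shown by 1 annotated copy, chosen because 2 of the subfamilies measured below meet in it. On GRCm38.p6 an LTRIS4 of 489 bases (chr17:34825295-34825783, plus strand) was followed, after a gap of 3 bases, by a MuRRS4-int fragment of 374 bases (chr17:34825787-34826160). Both lie in an intron of Stk19, which is on the minus strand, and no annotated exon overlaps the 300 bases printed here (chr17:34825634-34825933), which RefSeq gives as follows, with the hexamer AATAAA, the common polyadenylation signal, and the last 2 bases of the LTR in capitals.
LTRIS4 to MuRRS4-int: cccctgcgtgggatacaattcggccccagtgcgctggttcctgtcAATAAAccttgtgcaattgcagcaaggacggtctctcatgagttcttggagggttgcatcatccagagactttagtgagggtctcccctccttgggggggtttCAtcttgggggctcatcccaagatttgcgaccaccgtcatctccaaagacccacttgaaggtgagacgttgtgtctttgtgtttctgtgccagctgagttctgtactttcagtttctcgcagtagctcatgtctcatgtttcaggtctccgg
The first 150 bases are the end of the LTR and the last 147 the start of the internal region. The hexamer lay 99 bases before the LTR's end and occurred once in the run. Searched on both strands, the same 6 letters were present in 19.6% of 32851 promoter windows of the same length, so that the match is a description of this copy and not a site. How much this copy contributed to the counts below cannot be told from tables summed by subfamily.

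Germ cell RNA libraries held 38.1 to 49.9 M counts (M, mega) on genes and elements, CB libraries 3.97 to 16.7 M, and small RNA libraries 1.13 to 2.81 M counts on repeats. Counts of Smg6 spanned the whole gene and therefore checked nothing about the deleted exon: its log2 fold changes were 0.22 ± 0.17 (SE) in Spc, 0.05 ± 0.16 in RS and -0.06 ± 0.17 in CBs, with none called. The cell fractions carried the markers of their stages: all 10 spermatid genes were higher in CTRL RS than in CTRL Spc and 9 of 12 spermatocyte genes were lower. Markers of other stages and cell types moved with genotype. All 10 late spermatid genes (such as Prm1 and Tnp1) were lower in cKO RS, where their summed level was 2176 to 2332 CPM (counts scaled to a common library total) against 22549 to 27890 in CTRL. They were also all lower in cKO Spc (468 to 1472 against 4057 to 7902 CPM) and in cKO CBs (282 to 398 against 1706 to 4297 CPM). Of 7 Leydig cell genes tested 6 were higher and 1 lower in cKO RS (35.7 to 380 against 7.24 to 8.33 CPM), and 10 of 11 Sertoli cell genes were higher there (78.3 to 177 against 29.6 to 37.8 CPM). Of 14 macrophage genes 13 were higher and 1 lower in cKO RS, with overlapping sums (400 to 565 against 368 to 435 CPM). The spermatid list was lower in cKO RS too (10 of 10, 1716 to 1917 against 3712 to 3838 CPM), and 7 of 12 spermatocyte genes were higher and 2 lower (1939 to 2161 against 1199 to 1291 CPM). In Spc, 10 of 12 Sertoli genes were lower in cKO and 2 of 8 Leydig genes higher (604 to 1283 against 125 to 446 CPM). Of 14 macrophage genes 11 were higher and 2 lower in cKO Spc, although their summed level was lower (115 to 124 against 132 to 202 CPM), and 6 of 6 Leydig genes rose in cKO CBs (30.3 to 311 against 10.9 to 39.8 CPM). No gene of these lists was at 0 in every library. Their part in the results below was not tested, and in such bulk libraries fewer cells of a type and less RNA per cell cannot be told apart.

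ERV1 subfamilies took up little of the RNA, and their summed share of all counts was lower in RS than in Spc in both genotypes. The share of all counts was 0.329% ± 0.0186 (SD, n = 3) in CTRL Spc, 0.380% ± 0.0378 in cKO Spc, 0.239% ± 0.00831 in CTRL RS and 0.271% ± 0.0264 in cKO RS. RS libraries lay below every Spc library of their genotype, whereas the genotypes overlapped in both cell types. As a share of element counts alone, CTRL Spc (5.44 to 6.52%) and CTRL RS (5.03 to 5.49%) overlapped, and cKO Spc (6.58 to 7.54%) lay above CTRL Spc. With 3 libraries against 3 the exact two-sided permutation test cannot give less than 0.1, which was the p of both stage differences. The genotype differences gave an exact p of 0.2 in each cell type, and each of these 4 had an adjusted p of 0.25 over the 5 comparisons of long RNA. CB libraries held 0.723% ± 0.0676 (n = 4) in CTRL and 0.734% ± 0.137 (n = 3) in cKO, which overlapped (exact permutation p = 0.857).
Small RNA repeat counts lay on ERV1 names to 7.29% ± 0.0696 (n = 5) in CTRL Spc and 7.92% ± 0.370 (n = 5) in cKO Spc, without overlap (exact permutation p = 0.00794, the smallest possible, adjusted p = 0.0317 over 4 comparisons). This adjusted p rose above 0.05 when any single CTRL library was left out, and the 5 libraries of a group may not be separate samples. In RS the share was 7.54% ± 0.0705 in CTRL and 7.83% ± 0.0927 in cKO, also without overlap, but 3 against 3 libraries cannot go below the exact p of 0.1 that resulted (adjusted p = 0.133). CTRL RS exceeded CTRL Spc (exact permutation p = 0.0179, adjusted p = 0.0357, above 0.05 when any single library was left out), and cKO RS overlapped cKO Spc (exact permutation p = 0.732).

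**Figure D1:**
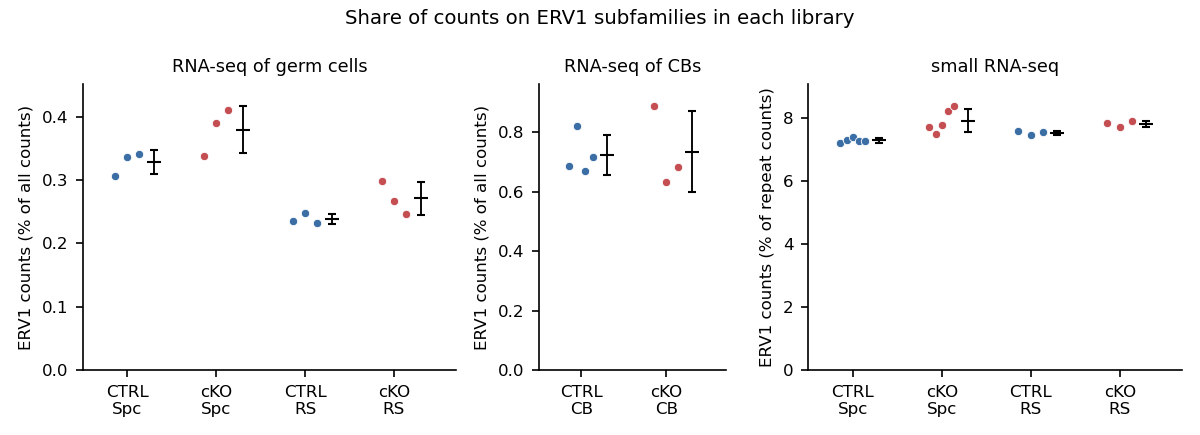
Share of counts on ERV1 subfamilies, in percent of all gene and element counts for RNA-seq of germ cells and CBs and in percent of repeat counts for small RNA-seq. Points are libraries (blue CTRL, red cKO), bars to their right the mean ± SD. The RS libraries lie below the Spc libraries in RNA-seq, and the cKO libraries lie above the CTRL libraries in small RNA-seq.

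A few internal regions carried much of the ERV1 RNA. RLTR6-int was the most abundant by count in germ cells, with 12.6% of ERV1 counts in CTRL Spc, 12.7% in cKO Spc, 19.0% in CTRL RS and 12.5% in cKO RS. MMVL30-int of the VL30 group, RodERV21-int and RLTR4_MM-int of the leukaemia virus group followed in that order in CTRL Spc. In cKO Spc the order was RLTR4_MM-int (12.2%), RodERV21-int (9.98%) and MMVL30-int (7.68%). The 5 leading names held 43.7 to 47.7% of ERV1 counts in the 4 germ cell groups. In CBs an LTR, LTRIS4B, led in cKO (16.5 to 17.4%) and was second in CTRL (9.08% ± 7.94, SD). Small RNA counts had other leaders, namely RLTR14-int, MLTR14, RLTR24, MER52-int and MER90a, which together held 66.6% of ERV1 small RNA counts in CTRL Spc and 69.0% in CTRL RS. No lengths were given for subfamilies, so that the orders above are by count and not by level per length. Differences between groups were compared within a subfamily.

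Of the 3 genotype comparisons of long RNA, that in round spermatids had the most ERV1 calls. When elements were scaled together with genes, 6 subfamilies were higher in cKO RS and 43 lower of 126 (Padj of 0.05 or less). Over all 18577 features tested, 37.9% were called higher and 33.2% lower, so that the share of ERV1 subfamilies called lower (34.1%) was near the background and the share called higher (4.76%) below it. The median log2 fold change was -0.39, against 0.10 over all features. Scaled among elements alone, the counts became 22 higher and 14 lower, where 13.9% and 14.7% of 1085 elements were called, and the median moved to 0.09. Log2 fold changes above 0 numbered 32 with genes and 73 among elements, and those below 0 numbered 94 and 53. With plain library totals the median over all features moved from 0.10 to 0.65, and 22 ERV1 subfamilies were called higher and 9 lower. The share of all features called with library totals was not counted. Past a log2 fold change of 1.5 in either direction lay 6 subfamilies, against 25.6% of all features. Under the scaling with genes 16 of 277 ERVK subfamilies were higher and 97 lower, of 111 ERVL 3 and 43, and of 103 ERVL-MaLR 0 and 70, with medians of -0.37, -0.41 and -0.60.

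The 6 subfamilies higher in cKO RS were called under every scaling tried and by DESeq2, and also with any library left out. They were MURVY-int, the leukaemia virus relatives MuLV-int, RLTR4_MM-int and RLTR4_Mm, and RLTR5_Mm and MER90. The other scalings moved RS values upward, with an ERV1 median of 0.09 among elements and a median over all features of 0.65 by library size. Agreement under those scalings was thus little test of a higher call. MURVY-int stood at normalised counts of 602, 504 and 777 in CTRL RS and 1690, 1133 and 1198 in cKO RS. The groups were apart, with a log2 fold change of 1.09 ± 0.20 (SE, Padj = 0.00164) and of 1.57 among elements. MuLV-int gave 783, 706 and 816 in CTRL and 1003, 1384 and 2008 in cKO (0.93 ± 0.23, Padj = 0.00648, 1.49 among elements).
RLTR4_MM-int, the internal region that goes with the RLTR4 LTR, rose from 6754, 6682 and 4664 to 8972, 7909 and 12792 (0.71 ± 0.20, Padj = 0.0122, 1.25 among elements). RLTR4_Mm, its LTR, rose from 961, 904 and 490 to 1318, 1242 and 2101 (0.98 ± 0.29, Padj = 0.0141, 1.52 among elements). Every cKO library lay above every CTRL library in both, the third cKO library highest and the third CTRL library lowest. Since MuLV and RLTR4 copies are nearly identical in sequence, the division of reads among these 3 names is uncertain. RLTR5_Mm stood at 126, 137 and 132 in CTRL and 261, 233 and 185 in cKO (0.78 ± 0.19, Padj = 0.00665).
The third cKO RS library, with the most RLTR4_MM-int, also had the highest summed Leydig level (380 CPM, against 102 and 35.7 in the others). RLTR4_MM-int and RLTR4_Mm each had the same order of libraries as the Leydig sum in 3 of the 4 germ cell groups, and MuLV-int in 1 of 4, an observation made after the values were seen. Its part in the rise of RLTR4 was not tested.

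Of the 43 lower subfamilies 37 were not internal regions by name, as were 100 of the 126 tested, and 8 of the 43 were lower under each scaling, by DESeq2 and with any library left out: MURVY-LTR, LTR31, LTR78, LTR103_Mam, MER34-int, MER50, MLTR73 and RLTR30. MURVY-LTR fell from 6024, 6279 and 6491 normalised counts in CTRL RS to 2194, 2221 and 1870 in cKO RS. That is a log2 fold change of -1.58 ± 0.09 (Padj = 2.07e-06), or -1.11 among elements, with groups far apart. LTR31 fell from 542, 569 and 509 to 145, 170 and 148 (-1.81 ± 0.14, Padj = 1.52e-05, -1.33 among elements). The 3 cKO values were close to each other and lay under every CTRL value. LTR103_Mam, an old fragment, had 160, 121 and 154 in CTRL and 41.0, 61.0 and 23.4 in cKO (-1.80 ± 0.35, Padj = 0.00209). MER50 had 116, 104 and 136 against 29.9, 54.8 and 31.4 (-1.61 ± 0.31, Padj = 0.00173), and MER34-int 186, 162 and 312 against 88.0, 76.0 and 52.4 (-1.61 ± 0.32, Padj = 0.00216).
Thus the LTR and the internal region of MURVY were called in opposite directions in the same libraries.

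RLTR6-int, the leading subfamily, fell from 25030, 24832 and 24398 to 14240, 15075 and 8891 (-0.96 ± 0.17, Padj = 0.00142). The third cKO library was lowest, and among elements the difference was -0.52 (Padj = 0.00142). RLTR6-int was not among the 8 lower subfamilies that held under each scaling and by DESeq2. MLTR14 had 7522, 6322 and 7673 in CTRL and 5025, 5031 and 3656 in cKO (-0.65 ± 0.14, Padj = 0.00291, -0.19 among elements). Other members of the mouse gammaretrovirus-like families called lower with genes included LTRIS4B (-1.43 ± 0.46), RLTR1B-int (-0.76 ± 0.12), MuRRS4-int (-0.67 ± 0.11), RLTR1B (-0.59 ± 0.17), RLTR6B_Mm (-0.58 ± 0.15) and LTRIS2 (-0.36 ± 0.09). Of these only RLTR1B-int stayed called among elements (-0.30, Padj = 0.0113), and LTRIS2 turned to 0.11.
MMVL30-int stood at 12673, 12002 and 10944 in CTRL and 12073, 12123 and 13266 in cKO, which overlapped (0.07 ± 0.08, Padj = 0.411), yet among elements it was 0.57 (Padj = 0.0367). MMERGLN-int overlapped too (-0.19 ± 0.19, Padj = 0.414), and its sign turned among elements (0.31).

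**Figure D2:**
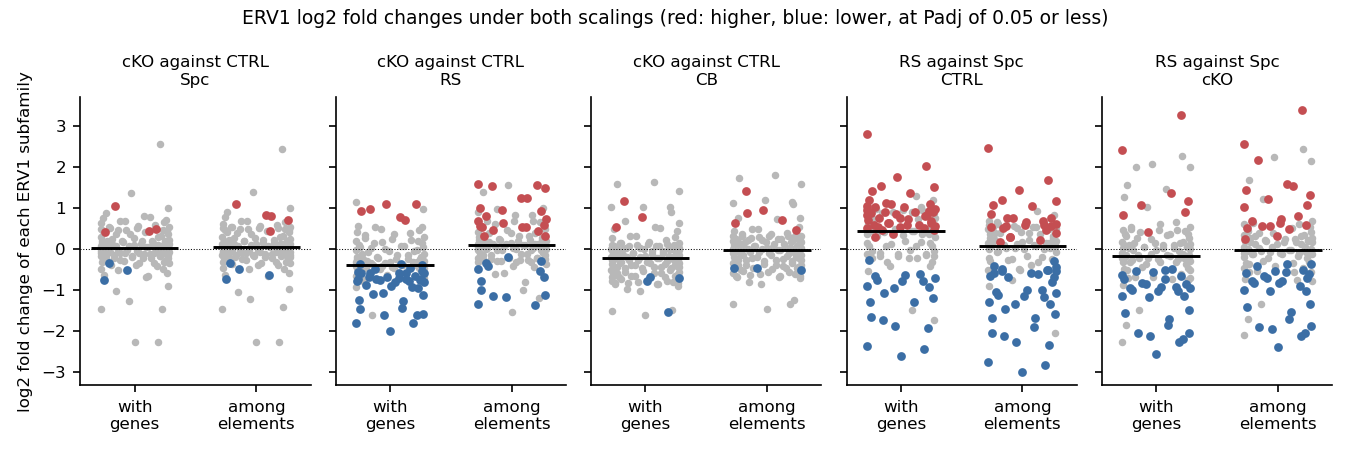
Log2 fold change of each ERV1 subfamily in 5 comparisons of long RNA, scaled with genes or among elements only. Each point is a subfamily, red called higher and blue called lower at Padj of 0.05 or less, and the bar is the median. In RS the median of cKO against CTRL lies at -0.39 with genes and 0.09 among elements, and in Spc both medians lie near 0.

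In spermatocytes few ERV1 subfamilies were called. With genes, 4 were higher and 3 lower of 125, where 13.2% and 12.9% of 18400 features were called, and none lay past 1.5 (8.09% of all features did). Among elements 5 were higher and 4 lower, against 4.17% and 2.78% of 1079 elements. The median was 0.02 with genes and 0.04 among elements. MURVY-int had 523, 271 and 323 in CTRL Spc and 654, 705 and 951 in cKO Spc (1.05 ± 0.28, Padj = 0.0312), a rise without overlap. MURVY-LTR had 2866, 2163 and 2291 against 1550, 1867 and 1700 (-0.52 ± 0.14, Padj = 0.0327), and LTR31 340, 241 and 259 against 142, 170 and 185 (-0.75 ± 0.21, Padj = 0.0399). Both groups were again apart, and the first CTRL library was highest in both subfamilies. That library also had the highest late spermatid sum, 7902 CPM against 4057 and 4092 in the other 2, which was noticed after the values were seen. In the other 3 germ cell groups neither subfamily had the same order of libraries as that sum. Between groups, the sum was highest in CTRL RS (22549 to 27890 CPM), and so were MURVY-LTR (6537 to 7035) and LTR31 (552 to 618) when all 4 groups were scaled together. The part of late spermatid RNA in these differences was not tested.
MuRRS4-int fell from 5795, 5136 and 5692 to 3790, 4581 and 4666 (-0.35 ± 0.11, Padj = 0.0476). RMER21B (0.49 ± 0.11), RLTR14 (0.43 ± 0.10) and MER52-int (0.40 ± 0.10) were higher in cKO. Among elements RMER21B (Padj = 0.0786) and MER52-int (Padj = 0.157) were not called. All 3 subfamilies lower in Spc were also among the 43 lower in RS, whereas of the 4 higher ones MURVY-int alone was among the 6 higher in RS. Of all ERV1 subfamilies tested in RS 34.1% were called lower and 4.76% higher, and the same overlap over all features was not counted.
No Spc call kept its Padj of 0.05 or less with each library left out in turn. Without the third CTRL library 0 were called higher and 1 lower, and without the first cKO library 0 were lower.
RLTR4_MM-int varied widely, at 7471, 16515 and 14037 in CTRL and 20088, 16356 and 25660 in cKO, and was not called (0.71 ± 0.29, Padj = 0.11). RodERV21-int, at 13338, 13716 and 12660 in CTRL and 14324, 19621 and 16971 in cKO, had groups apart but was not called either (0.36 ± 0.12, Padj = 0.0576). RLTR6-int (0.19 ± 0.12) and MMVL30-int (-0.14 ± 0.13) overlapped between genotypes.

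**Figure D3:**
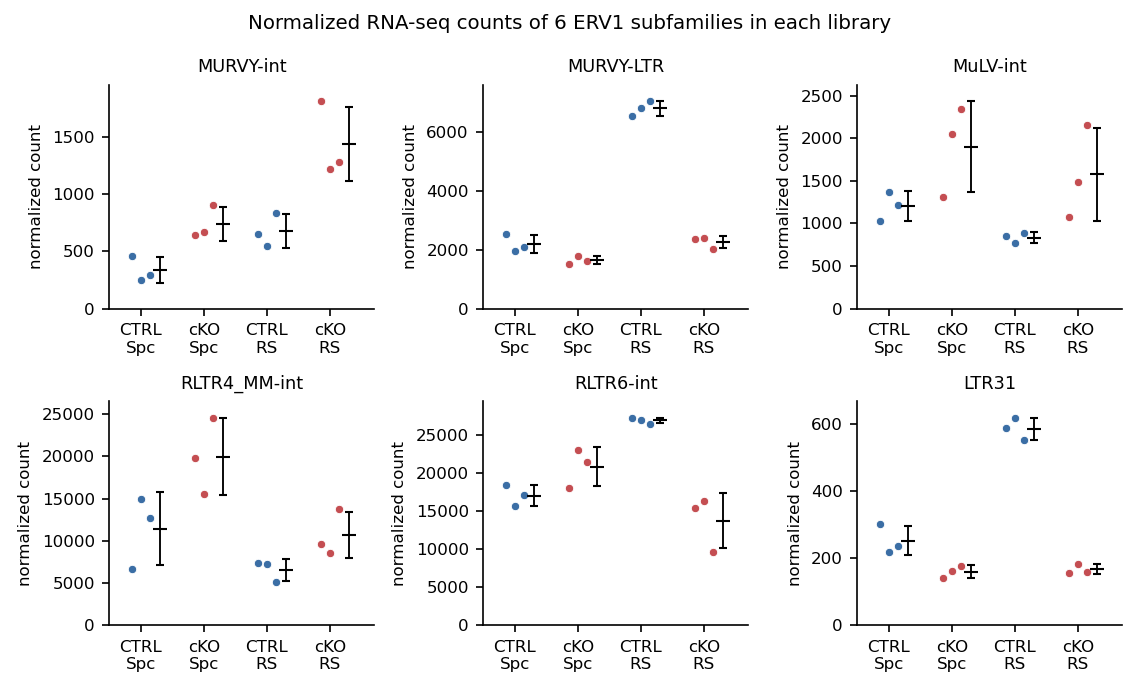
Normalised counts of 6 ERV1 subfamilies in the 12 germ cell RNA libraries, scaled together with genes over all 4 groups. Points are libraries (blue CTRL, red cKO), bars the mean ± SD, and the y axes are linear from 0. MURVY-int lies higher and MURVY-LTR and LTR31 lower in cKO in both cell types, and RLTR6-int lies lower in cKO RS, with overlapping groups in Spc.

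Chromatoid bodies showed few differences as well. Of 132 ERV1 subfamilies tested there, 3 were higher in cKO and 4 lower, where 15.2% and 17.5% of 15155 features were called, and 1 lay past 1.5 (10.6% of all features). Among elements 6 were higher and 3 lower, against 7.16% and 2.54% of 1104. MuLV-int rose from 397, 443, 442 and 405 in CTRL to 625, 1125 and 1102 in cKO (1.17 ± 0.20, Padj = 0.00103, 1.42 among elements). It was the single CB call that held under each scaling, by DESeq2 and with any library left out. MURVY-int had 236, 305, 383 and 236 against 655, 437 and 392 (0.78 ± 0.23, Padj = 0.0184), with the lowest cKO value just above the highest CTRL value. MuRRS-int had 1710, 2207, 1864 and 1944 against 3238, 2598 and 2500 (0.52 ± 0.19, Padj = 0.0438).
The 4 subfamilies called lower were MER67C (-0.77 ± 0.26), RLTR14_RN (-0.70 ± 0.25), MER34 (-0.68 ± 0.22) and MER65-int (-1.54 ± 0.51), the last at 2.88 to 17.8 normalised counts. All 4 were also lower in cKO RS, where 34.1% of the ERV1 subfamilies tested were called lower. The second CTRL library was the highest of its group in RLTR14_RN (610, with 358 to 381 in the others) and MER34 (285, with 178 to 181), and without it, or without the first CTRL library, 1 subfamily was called lower. Without the second or the third cKO library none of the 4 was called, and without the first cKO library 14 were.
LTRIS4B, the leading LTR of CBs, spread over 5777, 1409, 14308 and 2548 in CTRL and 13718, 12497 and 10340 in cKO. The CTRL spread covered the cKO values, and no call was made (1.02 ± 0.56, Padj = 0.178). MURVY-LTR, at 485 to 711 in CTRL and 431 to 740 in cKO, showed no called difference in CBs (0.08 ± 0.21, Padj = 0.806), unlike its fall in RS, but the difference between the 2 tables was not tested.

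From spermatocytes to round spermatids, ERV1 subfamilies were called in both directions in both genotypes, and the share called lower was not above the background with genes. In CTRL 46 of 126 were higher in RS (36.5%) and 22 lower (17.5%), where 35.9% and 38.7% of 18127 features were called. Past 1.5 lay 12 (32.4% of all features). Among elements 26 were higher and 37 lower, against 24.8% and 26.1% of 1081 elements. In cKO 8 of 127 were higher (6.3%) and 31 lower (24.4%), against 17.9% and 25.4% of 18798 features, and 11 lay past 1.5 (6.78% of all features). Among elements these were 21 and 29, against 15.9% and 19.8% of 1089. The median log2 fold change was 0.44 in CTRL and -0.16 in cKO with genes, and 0.08 and -0.02 among elements. Both stage comparisons share no library, but each uses libraries of the genotype comparisons.
MER52-int had 1844, 1999 and 2164 in CTRL Spc and 352, 491 and 325 in CTRL RS (-2.36 ± 0.17, Padj = 6.51e-05). In cKO it went from 3314, 3192 and 2936 to 820, 535 and 607 (-2.27 ± 0.17, Padj = 0.000182), so that the groups were far apart in both genotypes. LTR68 was lower in RS as well, with log2 fold changes of -2.60 ± 0.23 in CTRL and -2.55 ± 0.21 in cKO, and so were RLTR41A2 (-2.44 ± 0.14 and -2.20 ± 0.16) and LTRIS4 (-1.93 ± 0.25 and -2.11 ± 0.25). MuRRS-int, the internal region that goes with LTRIS type LTRs, fell from 3771, 4142 and 4406 to 1059, 1216 and 1101 in CTRL (-1.87 ± 0.10, Padj = 2.83e-05), and it fell in cKO too (-1.57 ± 0.18). RMER21B gave -2.03 ± 0.12 in cKO and -1.65 ± 0.09 in CTRL. RodERV21-int, an abundant internal region, went from 11601, 12016 and 11072 to 4151, 5114 and 4837 in CTRL (-1.30 ± 0.10) and from 14861, 20107 and 17923 to 5923, 3968 and 3046 in cKO (-2.03 ± 0.24). Each of these calls held among elements, where the falls in CTRL were larger, such as -2.74 for MER52-int and -2.99 for LTR68.
Other subfamilies were higher in RS. MURVY-LTR rose in CTRL from 2493, 1895 and 2004 to 5818, 6215 and 6226 (1.51 ± 0.12, Padj = 7.49e-05), and in cKO from 1608, 1914 and 1795 to 2421, 2539 and 2118 (0.41 ± 0.11, Padj = 0.0203). MURVY-int was higher in RS by 0.91 ± 0.27 in CTRL and 0.91 ± 0.20 in cKO. In CTRL, MER50 (1.76 ± 0.41), LTRIS5 (1.41 ± 0.23), MER34-int (1.36 ± 0.47) and LTR48 (1.19 ± 0.24) rose too, and LTR31 went from 296, 211 and 226 to 523, 563 and 488 (Padj = 0.000739). In cKO, MER34-int (1.18 ± 0.32), RLTR5_Mm (1.07 ± 0.23) and RLTR6C_Mm (0.84 ± 0.19) rose. LTR31 stood at 147, 175 and 195 in cKO Spc and 160, 194 and 168 in cKO RS, which overlapped (0.01 ± 0.21, Padj = 0.964). RLTR6-int rose in CTRL (0.54 ± 0.08, Padj = 0.000822) and fell in cKO (-0.65 ± 0.20, Padj = 0.0323). Neither call held with library totals as scaling, and that in cKO was also lost without any 1 of the 3 cKO Spc libraries or without the first cKO RS library.

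The difference between the genotype effects of the 2 cell types was tested as an interaction in all 12 libraries, where a negative value means a lower cKO to CTRL ratio in RS than in Spc. With genes, 0 of 134 subfamilies were called positive and 30 negative, where 19.3% and 21% of 19276 features were called, and none lay past 1.5 (10.3% of all features). At an unadjusted p under 0.05 there were 42 in either direction, and library totals as scaling gave 8 positive and 1 negative. With library totals the median over all features moved from -0.12 to 0.52, and the shares of all features under these rules were not counted. Among elements 0 were positive and 2 negative, against 1.63% and 1.72% of 1105 elements, and the median turned from -0.46 to 0.10. The 2 were RLTR6-int (-1.26 ± 0.23, Padj = 0.0022 with genes, -0.71, Padj = 0.00187 among elements) and MURVY-LTR (-1.18 ± 0.16, Padj = 0.000552 with genes, -0.60, Padj = 0.0123 among elements). With library totals as scaling the call of RLTR6-int was lost (-0.63, Padj = 0.0503), and that of MURVY-LTR held under every scaling and by DESeq2. RLTR6-int was at 15572 to 18392 in CTRL Spc, 18012 to 22943 in cKO Spc, 26441 to 27160 in CTRL RS and 9561 to 16251 in cKO RS. So the cKO libraries lay partly above the CTRL libraries in Spc and all below them in RS. MURVY-LTR was lower in cKO in both cell types, by more in RS. MLTR73 (-1.39 ± 0.32), LTRIS5 (-1.33 ± 0.34), RLTR48C (-1.25 ± 0.40) and MER67D (-1.22 ± 0.25) were called with genes but not among elements. MURVY-int (-0.07 ± 0.36, Padj = 0.89) and RLTR4_MM-int (-0.10 ± 0.40, Padj = 0.854) were not called, which does not show that their genotype effects were equal in both cell types.

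Small RNA on ERV1 repeats changed with genotype in both directions. In Spc 23 of 71 subfamilies were higher in cKO and 14 lower, where 22.6% and 23.7% of 810 repeats were called, and 3 lay past 1.5 (2.22% of repeats). In RS 17 of 75 were higher and 6 lower, against 13.4% and 15.1% of 850 repeats, and 5 lay past 1.5 (3.88%). The ERV1 medians were 0.31 in Spc and 0.23 in RS, against 0.08 and 0.11 over all repeats. Of the subfamilies called higher, 12 were shared by the cell types, 52.2% of those in Spc and 70.6% of those in RS, and all 6 lower ones in RS were also lower in Spc (42.9% of those in Spc). The same overlap over all repeats was not counted.
MER52-int had the largest fall among abundant names. It stood at 8255, 7682, 8141, 7906 and 8142 in CTRL Spc and 3286, 2691, 3005, 2945 and 2457 in cKO Spc (-1.48 ± 0.07, Padj = 1.94e-09). In RS it went from 14070, 14009 and 14104 to 5884, 1748 and 4993 (-1.74 ± 0.37, Padj = 0.0107). The CTRL values hardly differed from one another, and the second cKO RS library was far lower than the other 2. LTRIS_Mm fell from 247 to 320 in CTRL Spc to 86.3 to 109 in cKO Spc (-1.58 ± 0.10, Padj = 3.03e-08) and was lower in RS (-1.32 ± 0.16, Padj = 0.000772). MER90a (-0.38 ± 0.06 in Spc and -0.63 ± 0.06 in RS), MLTR14 (-0.31 ± 0.04 and -0.48 ± 0.05) and RLTR14-int (-0.32 ± 0.05 and -0.30 ± 0.05) were lower by less and without overlap. LTRIS4, the LTR printed above, was lower in Spc (-0.32 ± 0.05, Padj = 5.53e-05). MURVY-LTR, at 47.0 to 84.5 in CTRL Spc and 18.7 to 27.6 in cKO Spc (-1.56 ± 0.18, Padj = 9.39e-06), was also lower in RS (-0.87 ± 0.25, Padj = 0.0311).
Other names were higher in cKO. RLTR1B-int had 44.3 to 97.7 in CTRL Spc and 130 to 171 in cKO Spc (1.20 ± 0.18, Padj = 0.000122). Its RS values of 70.7, 93.0 and 59.7 rose to 216, 157 and 193 (1.36 ± 0.21, Padj = 0.00224). MMVL30-int (0.97 ± 0.19 and 1.24 ± 0.18), RMER5 (1.03 ± 0.06 and 0.75 ± 0.09) and RLTR6-int (0.76 ± 0.11 and 0.74 ± 0.08) were higher in Spc and RS without overlap, and LTRIS4A (2.25 ± 0.36 and 1.26 ± 0.26) rose from at most 12.5 counts in CTRL Spc to 18.1 to 43.6 in cKO Spc. RLTR4_MM-int was called in RS (52.3, 44.2 and 60.9 against 109, 81.5 and 142, 1.06 ± 0.24, Padj = 0.0122). MuRRS4-int, the internal region printed above, was higher in cKO Spc (0.52 ± 0.09, Padj = 0.000248), at 164 to 198 in CTRL and 224 to 268 in cKO.
RLTR24 was higher in cKO Spc (0.38 ± 0.12, Padj = 0.023), but the groups overlapped: CTRL held 14068 to 15462, cKO libraries 1 to 3 held 15884, 15392 and 16056, and libraries 4 and 5 held 23794 and 24939.
Scaled by the total of all small RNA tables, 35 names were higher and 5 lower in Spc and 27 higher in RS, where 4 of the 6 lower names stayed lower. That scaling moved the median of all repeats to 0.33 in Spc and 0.39 in RS, and the share of all repeats called under it was not counted. The 5 that fell under every scaling and by DESeq2 in Spc were MER52-int, LTRIS_Mm, MER90a, MURVY-LTR and LTRIS3, and MER52-int, LTRIS_Mm, MER90a and MLTR14 did so in RS, each also with any library left out.

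**Figure D4:**
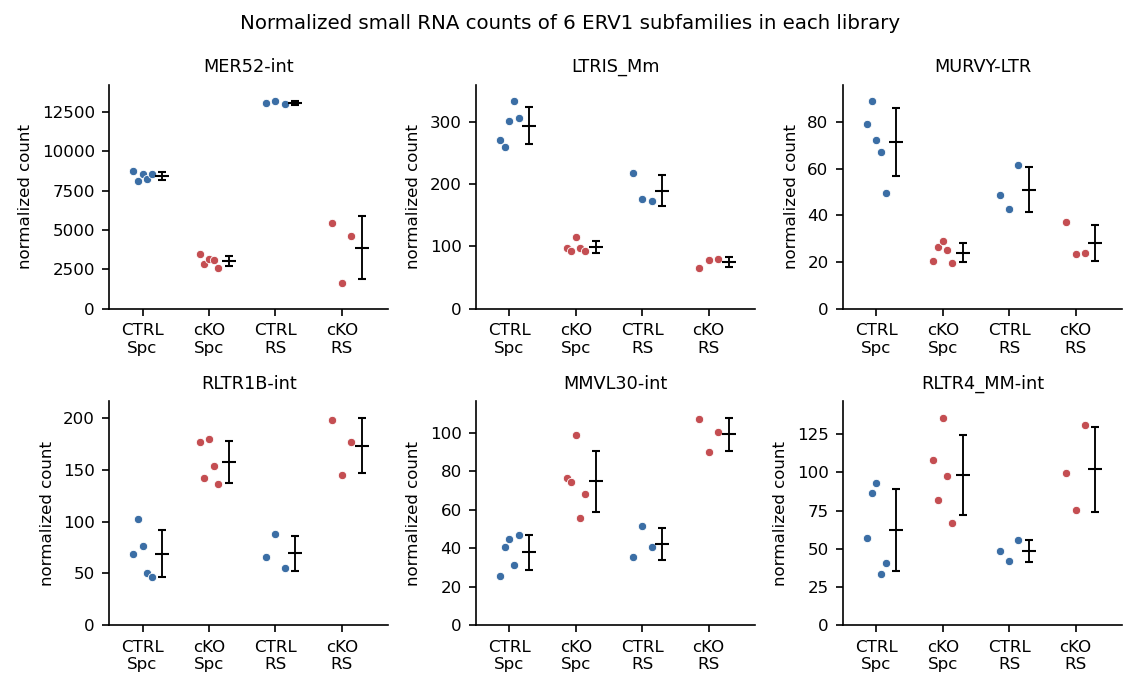
Normalised small RNA counts of 6 ERV1 subfamilies in the 16 small RNA libraries, scaled among repeats over all 4 groups. Points are libraries (blue CTRL, red cKO), bars the mean ± SD, and the y axes are linear from 0. MER52-int, LTRIS_Mm and MURVY-LTR lie lower and RLTR1B-int and MMVL30-int higher in cKO in both cell types.

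Between stages, small RNA differed in CTRL. Of 71 subfamilies 7 were higher in RS and 12 lower, where 17.9% and 19.6% of 815 repeats were called, and none lay past 1.5 (1.35% of repeats). MER52-int rose from 8469 to 9105 in CTRL Spc to 13232 to 13382 in CTRL RS (0.59 ± 0.03, Padj = 7.41e-09), and MER90a from 6902 to 7480 to 9199 to 9423 (0.39 ± 0.03, Padj = 6.48e-07). RodERV21-int (0.30 ± 0.07) and RLTR41B (0.28 ± 0.05) rose as well. LTRIS_Mm (-0.69 ± 0.11), RLTR30B_MM (-0.39 ± 0.04), MURVY-int (-0.35 ± 0.05), LTRIS2 (-0.32 ± 0.07) and LTRIS4 (-0.23 ± 0.04) were lower in RS. In cKO 0 of 75 were called in either direction by edgeR, and so were 0% of 852 repeats, higher, lower or past 1.5, with 4 ERV1 names at an unadjusted p under 0.05. DESeq2 called 0 as well. The interaction gave 0 calls of 70 in either direction with edgeR, against 0% of 793 repeats, with 10 at an unadjusted p under 0.05 and with 0 higher and 1 lower by DESeq2. The shares of all repeats at that unadjusted p were not counted. The stage difference was thus called in CTRL and not in cKO, and edgeR called no difference between the genotypes in it.

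Long and small RNA changes of the same subfamily had the same sign in 38 of 71 subfamilies in Spc and 27 of 75 in RS. Across subfamilies in both fits the 2 log2 fold changes had a Spearman correlation of -0.13 (71 subfamilies) in Spc and -0.04 (75) in RS, and of -0.29 (37) and -0.21 (35) over those with a mean normalised count of at least 50 in both. These are descriptions, since subfamilies share libraries, reads and scaling and are not replicates. In RS, MuLV-int, RLTR4_MM-int and RLTR4_Mm were called higher in both. LTRIS4B, RLTR1B-int, RLTR23, RLTR6-int and RMER5 were lower in long RNA, with genes as scaling, and higher in small RNA. MURVY-LTR and MLTR14 were lower in both. In Spc, MER52-int and MURVY-int were higher in long RNA and lower in small RNA (for MURVY-int -0.23 ± 0.06, which turned to 0.026 with all small RNA tables as library size), MuRRS4-int was lower and higher, RLTR14 higher in both and MURVY-LTR lower in both. LTRIS4B small RNA in RS rested on 1.16 to 16.2 normalised counts with groups overlapping.

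**Figure D5:**
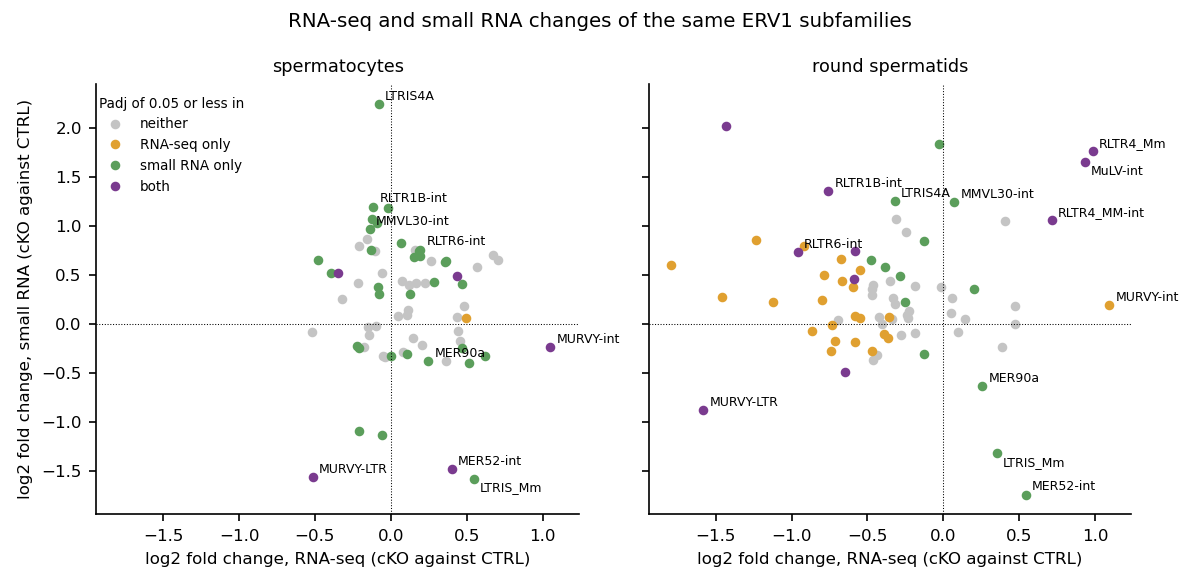
Log2 fold change of cKO against CTRL in RNA-seq (x axis, scaled with genes) and small RNA-seq (y axis, scaled among repeats) for ERV1 subfamilies in both fits, 71 in spermatocytes and 75 in round spermatids. Each point is a subfamily, coloured by where it was called. MURVY-LTR lies below 0 on both axes in both cell types, and MER52-int lies right of 0 and far below 0.

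Genes that silence ERVs or make piRNAs were described from a list of 32, of which 31 were in the tables. In cKO RS 20 of 31 were higher and 7 lower, in cKO Spc 9 were higher and 1 lower, and in cKO CBs 3 of 30 were higher and 4 lower. Over all features the shares called higher and lower were 37.9% and 33.2% in RS, 13.2% and 12.9% in Spc and 15.2% and 17.5% in CBs. The list median in RS was 0.49, against 0.10 over all features. Dnmt1, the maintenance DNA methyltransferase, was higher in RS (2.33 ± 0.12, Padj = 1.26e-06), Spc (0.80 ± 0.10, Padj = 0.00288) and CBs (1.04 ± 0.21, Padj = 0.00224). Hells, a chromatin remodeller needed for DNA methylation of repeats, was higher in RS (1.79 ± 0.14) and Spc (0.72 ± 0.11), and Setdb1, an H3K9 methyltransferase, in RS (0.90 ± 0.09) and CBs (0.57 ± 0.16). Tdrd5, a Tudor protein of piRNA biogenesis, was higher in RS (1.60 ± 0.17) and Spc (0.45 ± 0.12), and Piwil1, the PIWI protein of pachytene piRNAs, in RS (0.81 ± 0.24). Dnmt3l, a cofactor of de novo methylation, was lower in RS (-2.47 ± 0.31), Spc (-2.03 ± 0.30) and CBs (-1.60 ± 0.30). Gtsf1, a PIWI partner, was lower in RS (-1.32 ± 0.08) and CBs (-1.25 ± 0.19), as were Tex15 (-0.95 ± 0.12 and -1.23 ± 0.21) and Mael (-0.74 ± 0.06 and -0.75 ± 0.17), which act in piRNA-directed silencing. In CTRL cells 20 of the 31 were lower in RS than in Spc and 6 higher, where 38.7% and 35.9% of all features were called.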

How the data were processed

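Per the labels and the study's methods, the authors trimmed reads with cutadapt 2.8 and aligned them to GRCm38 with STAR, and TEtranscripts in reverse stranded mode counted genes and repeat subfamilies. Germ cell libraries were poly(A) selected, CB libraries were total RNA without rRNA removal. The deposited tables hold raw whole-number counts, and a read with more than 1 position was divided over the elements it matched. Small RNA reads were aligned to mm10 with HISAT2 2.1.0 and counted on RepeatMasker names with featureCounts. The submitters' processing notes name STAR 2.7.1a and featureCounts 2.0.1, and the methods give other versions of both for some of the files. The deposited repeat table holds expected counts, as fractional values show, and these were rounded here. Whether strand or read length was used, and whether copies of one molecule were merged, is not given in the sources used here. Transcript and piRNA precursor tables were not used, and the small RNA tables for miRNAs, tRNA fragments and clusters served for library totals only.

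Libraries were grouped from their labels. Columns of the CB tables carry numbers that do not match those of the sample titles, and columns of the small RNA tables carry no replicate number, so that both were mapped to their group only and their libraries are numbered here in column order within a group. Counts of replicate libraries differed by more than sampling noise. By the methods, small RNA was taken from the RNA-seq samples, and RNA-seq had 3 per group, so that the 5 Spc small RNA libraries of a group may not be separate samples, and p-values then measure the spread between libraries.

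Comparisons used edgeR 4.0.16 in R 4.3.3 (quasi-likelihood test, two-sided, TMM scaling, Benjamini-Hochberg Padj over all features of a fit). Elements needed 10 counts in total, genes 10 counts in at least 3 libraries, and small RNA repeats 1 count in every library of the fit. A subfamily was called at Padj of 0.05 or less, and the number past a log2 fold change of 1.5 is also given. Long RNA was scaled with genes and, as an alternative, among elements. Shares were compared with exact permutation tests, adjusted within an assay. DESeq2 1.42.0, library totals, another count filter, a replicate block and omission of each library were the other alternatives. The model was tested on simulated data. Figures were drawn in Python 3.11.15. Subfamilies named are, per comparison, up to 5 highest and 5 lowest called ones with a mean normalised count of at least 50 and groups apart, the 5 most abundant names, and the mouse gammaretrovirus-like families. LTR78, RLTR30, MER90 and MER65-int fall outside this rule and were named after their values were seen, to complete short lists of calls. The members and lists were chosen with earlier results of these data known.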

Additional observations from a re-analysis of the deposited data

Results flagged for a closer look

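Among 56 groups of 4 or 5 normalised counts examined for named subfamilies, a single library stood apart from its group by Dixon's criterion in 5, where chance gives about 1 in 20. In CTRL CBs the second library held 610 counts of RLTR14_RN, with 358 to 381 in the others, and 285 of MER34, with 178 to 181 in the others. In cKO Spc small RNA the third library held 109 counts of LTRIS_Mm (86.3 to 92.4 in the others), the second 2280 of LTRIS4 (2402 to 2445), and the fourth 224 of MuRRS4-int (263 to 268).

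Differences between the genotype effects in RS and Spc were called by the interaction test, with genes as scaling, for 11 named subfamilies: MLTR73 (-1.39 ± 0.32, Padj = 0.00661), LTRIS5 (-1.33 ± 0.34, Padj = 0.011), RLTR6-int (-1.26 ± 0.23, Padj = 0.0022), RLTR48C (-1.25 ± 0.40, Padj = 0.0282), MER67D (-1.22 ± 0.25, Padj = 0.00327), MURVY-LTR (-1.18 ± 0.16, Padj = 0.000552), RLTR14 (-0.83 ± 0.18, Padj = 0.00436), RLTR6B_Mm (-0.81 ± 0.21, Padj = 0.0111), RLTR1B-int (-0.76 ± 0.17, Padj = 0.00613), LTRIS2 (-0.67 ± 0.15, Padj = 0.00497) and MuRRS4-int (-0.43 ± 0.16, Padj = 0.0451). Among elements only RLTR6-int (-0.71) and MURVY-LTR (-0.60) kept a Padj of 0.05 or less, and MuRRS4-int turned to 0.15. By library size RLTR6-int lost its call (-0.63, Padj = 0.0503).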

How the results depend on the processing

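Scaling moved the counts of called ERV1 subfamilies in several comparisons. Higher and lower calls became 22 and 14 among elements and 22 and 9 by library size in RS, 26 and 37 and then 14 and 38 for the stage in CTRL, and 0 and 2 and then 8 and 1 for the interaction. Higher calls became 6 in CBs and 21 for the stage in cKO among elements, and 12 were lower in CBs by library size. The median of all features moved by over 0.1 with library size in RS, in CBs (to -0.12), for both stages (to -0.47 in CTRL and 0.15 in cKO) and for the interaction (to 0.52). Small RNA gave 35 higher and 5 lower in Spc and 27 higher in RS with all small RNA tables as library size, and 9 lower in Spc and 26 higher in RS by the repeat total. The median of all repeats moved with both, to 0.33 and 0.27 in Spc and 0.39 and 0.37 in RS. Shares of all features called were counted only for the main scaling and among elements. DESeq2 called 11 higher and 7 lower in Spc, 5 higher in CBs and 1 lower in the small RNA interaction. Another count filter gave 9 lower in CBs, and an analysis with only the 2 CTRL CB columns of the common header, chosen after seeing the data, gave 1 lower. Calls past a log2 fold change of 1.5, in either direction, numbered 0 in Spc, 6 in RS, 1 in CBs, 12 and 11 for the stages, 0 for the interaction, and 3, 5 and 0 for small RNA in Spc, RS and the CTRL stage. With elements as denominator the exact permutation p of the share went from 0.2 to 0.1 in Spc, from 0.2 to 0.7 in RS and from 0.1 to 0.2 for the stage in CTRL. The CB share difference was -0.0373 points with elements as denominator, opposite in sign to the main one.

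Signs turned for LTRIS2 in RS (0.11 among elements, 0.20 by library size), MMERGLN-int in RS (0.31, 0.37, and -0.405 to 0.0047 with 1 library left out, the latter without the second CTRL library), MuRRS4-int for the stage in CTRL (-0.0403 by library size) and the interaction (0.15, 0.21), RLTR6-int in CBs (0.0083 with the common header) and MURVY-int small RNA in Spc (0.026 with all tables). Of the other alternatives for single named subfamilies 1471 kept their side of the threshold, 259 lost and 15 gained a call.

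With each library left out in turn, higher and lower calls ranged from 0 to 7 and 0 to 2 in Spc, 6 to 9 and 30 to 46 in RS, 1 to 6 and 0 to 14 in CBs, 29 to 55 and 16 to 24 for the stage in CTRL, 4 to 9 and 22 to 28 in cKO, and 0 to 1 and 18 to 38 for the interaction. Counts moved by over 1.5 times in Spc without CTRL library 1 (7 higher), 2 (1 higher) or 3 (0 higher, 1 lower) or cKO library 1 (0 lower), 2 (2 higher, 1 lower) or 3 (0 lower). In CBs they did so without CTRL library 1 (1 and 1), 2 (1 lower) or 4 (1 higher) or cKO library 1 (14 lower), 2 (0 lower) or 3 (6 and 0). For the stages they did so without CTRL Spc library 2 (30 higher) or 3 (29), cKO Spc library 1 (5) or cKO RS library 1 (5) or 2 (4), and for the interaction without cKO RS library 3 (1 and 18). Small RNA ranges were 21 to 24 and 13 to 16 in Spc, 10 to 24 and 5 to 10 in RS, 6 to 9 and 5 to 10 for the stage in CTRL, 0 to 1 and 0 to 0 in cKO, and 0 to 0 for the interaction. In RS 10 were higher without CTRL library 2 or CTRL library 3 and 10 lower without cKO library 2, and the CTRL stage had 7 lower without Spc library 3 and 5 without RS library 2. Share differences, in percentage points, ranged from 0.0357 to 0.0724 in Spc, 0.0188 to 0.0451 in RS, -0.0662 to 0.0629 in CBs (-0.0662 without the first cKO, -0.00142 without the first CTRL and -0.00643 without the third CTRL library), -0.101 to -0.0839 and -0.13 to -0.0931 for the stages, and for small RNA 0.508 to 0.730 in Spc, 0.244 to 0.336 in RS, 0.220 to 0.284 for the stage in CTRL and -0.199 to 0.0228 in cKO (0.0228 without the fifth Spc library). The adjusted p of the small RNA share rose above 0.05 in Spc without any 1 CTRL library and for the CTRL stage without any 1 library, when fewer regroupings remain.

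With the replicate number as a block, 3 higher and 0 lower were called in Spc, 6 and 37 in RS, 36 and 19 and then 8 and 34 for the stages, and 0 and 24 for the interaction. Deviations of same-numbered libraries correlated at -0.21 to 0.56, and not above 0.1 in every pair of any comparison, so that the numbers gave no consistent pairing. For the stage in cKO, numbers 2 and 3 correlated at 0.56 and 0.28, and the own number was the best partner in both. Whether Spc and RS fractions came from the same mice cannot be told from this, and the stage and interaction tests treat them as independent. For CBs and small RNA no such block was possible, because the numbers in the CB columns do not match those of the sample titles and the small RNA columns carry none. Depth limited CB and small RNA values of a few counts, such as LTRIS4B small RNA.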
